A study of Mus musculus with 6 samples.

Results

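The anaphase-promoting complex (APC/C), its activators, its E2 enzymes and its inhibitor were described in mouse podocyte cells by 10 genes, taken by name from a table of 11308 genes. The 10 genes were the activators Cdc20 and Fzr1, the E2 enzymes Ube2c and Ube2s, the inhibitor Fbxo5, and the core subunits Anapc1, Anapc2, Anapc5, Cdc27 and Cdc16. All 10 were in the table, as 21 of its 21849 transcripts. All 10 had a mean above the filter of 0.5 FPKM in both groups.

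MPC5 cells, a conditionally immortalized mouse podocyte line with the strain label C57BL/6, were grown in normal glucose. In 3 samples the lncRNA Dlx6-os1 was overexpressed from a viral vector. The 3 control samples are titled wild type, and control replicate 3 carries no genotype label. The labels give a lentivirus and an empty vector for the controls, whereas the methods of the study name an adenovirus and normal controls, so the vector of the controls is uncertain. Whether the RNA-seq cells were growing or had been shifted to differentiate was not stated in the labels or methods. The methods call the cells of the glucose comparison differentiated and mature, and those of the overexpression experiment only normal. The methods state for the study as a whole that values come from different animals or separate experiments, but neither they nor the labels say this of the RNA-seq replicates. If these were not separate cultures, the p-values measure only the spread between these samples, which may be technical.

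The APC/C is the ubiquitin ligase that takes cells from metaphase into anaphase and then out of mitosis, by marking cyclins, securin and other proteins for the proteasome. Cdc20 activates it in mitosis and Fzr1 (Cdh1) from late mitosis through G1. Ube2c places the first ubiquitin on a substrate, Ube2s extends the chain, and Fbxo5 (Emi1) holds the complex inactive from S phase to early mitosis. Mature podocytes in the kidney are terminally differentiated cells that rarely divide.

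The summed FPKM (fragments per kilobase of transcript, scaled to the mapped fragments of each sample) ran between 341945 and 371806 in overexpression samples and between 329402 and 371469 in controls. The podocyte genes Synpo, Podxl, Cd2ap and Actn4 were in the table. Synpo (synaptopodin) had 44.1 to 53.4 FPKM in overexpression samples and 36.5 to 72.3 FPKM in controls. The defining podocyte gene Nphs1 (nephrin) was not among the table's rows, nor were Ptpro and Magi2. Of other kidney cell types, the table held 1 of 7 tubule markers (Lrp2, 18.7 to 37.8 FPKM in overexpression samples and 43.4 to 60.2 FPKM in controls). It held 3 of 4 mesangial markers (Pdgfrb, Des and Gata3, summed 7.94 to 12.3 FPKM in overexpression samples and 14.7 to 16.3 FPKM in controls). It held 1 of 4 leukocyte markers (Cd68, 4.60 to 8.55 FPKM in overexpression samples and 4.97 to 6.82 FPKM in controls) and 0 of 5 endothelial markers. Control replicate 1 stood apart by transcript length and GC content: its log2 values moved by 0.15 per doubling of length and by -0.33 per 10 points of GC, against -0.11 to 0.06 and -0.10 to 0.07 in overexpression samples and -0.10 to -0.04 and 0.13 to 0.20 in the other controls. Ube2c, Ube2s and Cdc20 are short genes (976, 1226 and 1793 bases, against a median gene of 2823 bases), and Anapc1 (8942 bases) and Cdc27 (5300 bases) are long ones. Results were therefore also computed with these trends removed, an alternative chosen after the data were seen.

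Of the 10 genes, Cdc20, Ube2c and Fbxo5 rose with Dlx6-os1 overexpression, each by 0.66 to 0.77 on the log2 scale, and 0 of 10 fell. A gene was called where limma gave an unadjusted p under 0.05 with a fold above 1.5, the thresholds of the study. Of all 11308 genes, 282 were called higher (2.49%) and 252 lower (2.23%). With Benjamini-Hochberg adjustment over all genes, 4 genes of the table (0.0354%) and 0 of the 10 passed an adjusted p of 0.05, although 5 of the 10 had an unadjusted p under 0.05, beside 9.16% of all genes. The log2 difference, taken on log2(FPKM + 1), was above 0 in 9 of 10 genes, beside 6129 of all 11308 genes. Its median was 0.45 in the 10 genes, beside 0.03 over all genes. In 4 of 10 genes every overexpression sample was higher than every control, and in 0 of 10 lower, beside 10.1% and 6.24% of all genes. In bulk RNA, more cells in mitosis and more RNA per cell cannot be told apart.

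**Figure D1:**
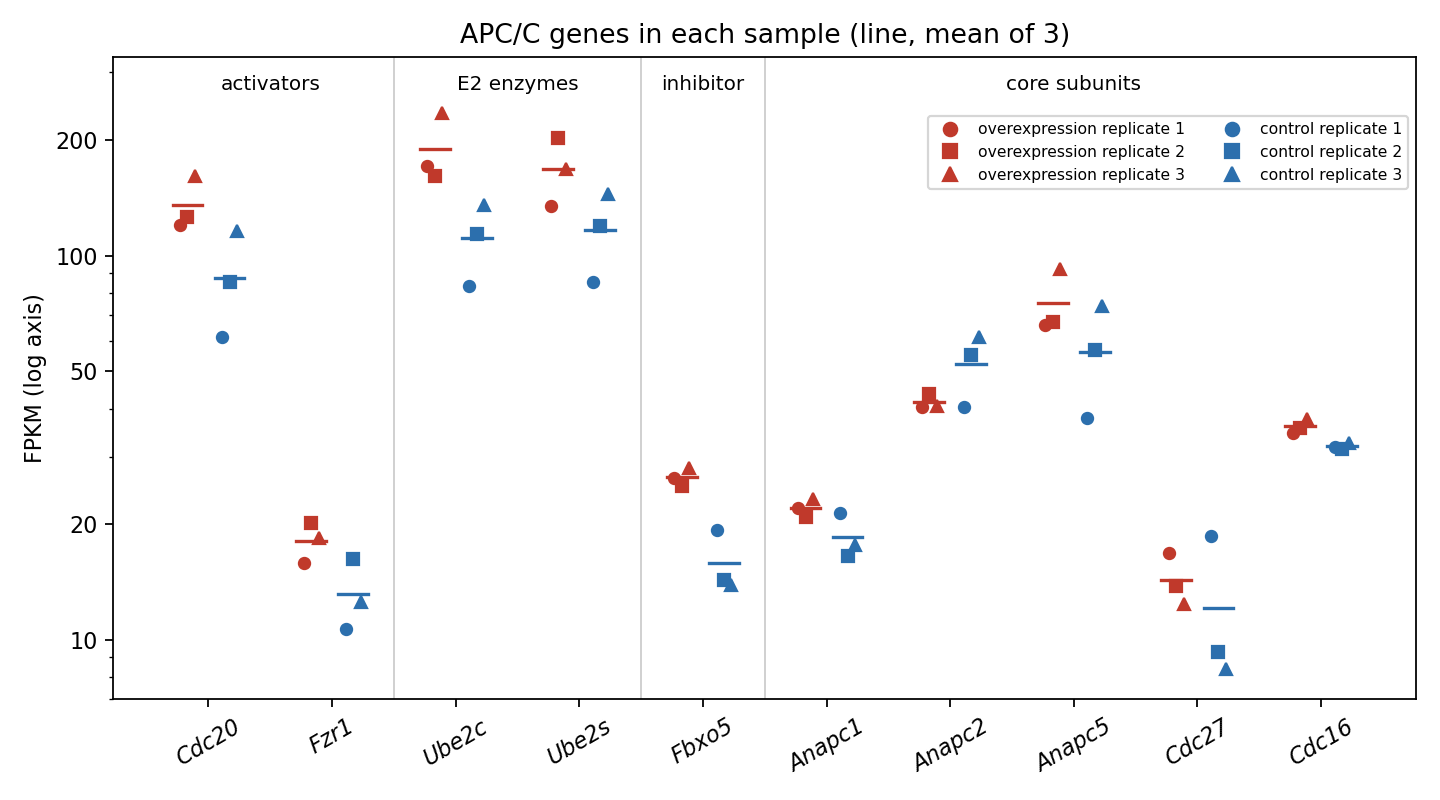
FPKM of the 10 genes (log axis) in each sample, with overexpression samples in red left of controls in blue and bars at group means. Cdc20, Ube2c, Fbxo5 and Cdc16 have no control above the lowest overexpression sample.

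Short genomic stretches around the RefSeq starts of the genes that rose are shown with the letters of known cell cycle promoter elements. Cdc20, Ube2c and Fbxo5 are regulated in the cell cycle. The CHR (cell cycle genes homology region), TTTGAA, is bound by complexes that hold MuvB proteins, and CCAAT by NF-Y. Both were searched on both strands in the window from 250 bases before to 50 after each start (RefSeq, GRCm38.p6), and a promoter was found in the table for all 10 genes. Each line below gives 200 bases before the start and 20 after it, 5′ to 3′ on the gene's strand, with the matches in capitals (TTCAAA and ATTGG are matches on the opposite strand). Anapc2 is given as a gene with neither.
Cdc20, chr4:118437324-118437543, minus strand: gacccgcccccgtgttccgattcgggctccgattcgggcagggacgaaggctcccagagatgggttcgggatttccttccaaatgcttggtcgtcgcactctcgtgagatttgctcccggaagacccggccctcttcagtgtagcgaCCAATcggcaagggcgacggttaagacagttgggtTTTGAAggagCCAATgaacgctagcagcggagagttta
Ube2c, chr2:164769729-164769948, plus strand: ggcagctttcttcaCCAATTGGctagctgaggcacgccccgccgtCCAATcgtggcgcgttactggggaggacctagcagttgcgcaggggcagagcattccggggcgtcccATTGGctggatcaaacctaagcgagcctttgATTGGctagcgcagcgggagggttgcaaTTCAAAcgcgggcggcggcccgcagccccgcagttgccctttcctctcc
Fbxo5, chr10:5805446-5805665, minus strand: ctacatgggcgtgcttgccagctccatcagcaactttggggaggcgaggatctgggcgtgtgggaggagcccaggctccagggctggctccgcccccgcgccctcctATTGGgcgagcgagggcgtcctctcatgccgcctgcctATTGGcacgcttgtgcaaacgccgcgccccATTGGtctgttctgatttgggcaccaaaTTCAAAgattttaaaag
Anapc2, chr2:25272266-25272485, plus strand: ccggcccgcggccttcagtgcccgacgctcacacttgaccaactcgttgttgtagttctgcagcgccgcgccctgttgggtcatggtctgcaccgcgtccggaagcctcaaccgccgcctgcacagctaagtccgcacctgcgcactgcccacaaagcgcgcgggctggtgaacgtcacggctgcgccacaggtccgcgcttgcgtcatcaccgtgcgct
TTTGAA lay in 3 of 10 windows, those of Cdc20 (18 bases before the start), Ube2c (29 bases before it) and Fbxo5 (at base 4 after it), which are the 3 genes that were called higher. These RefSeq starts differ from those of the listed transcripts. Fbxo5-001 begins at chr10:5805600 on the minus strand, so the TTTGAA and CCAAT matches of Fbxo5 lie within that transcript's span. Ube2c-001 begins at chr2:164769898, so the TTTGAA of Ube2c lies within it too. It was in 18.1% of all 27025 promoters and in 11.2% of the 8647 promoters of genes in the FPKM table. CCAAT lay in 6 of 10 windows, against 37.9% of all promoters and 39.3% of those of genes in the table, with 6 matches in Ube2c, 3 in Fbxo5, 2 in each of Cdc20, Anapc5 and Cdc27, and 1 in Fzr1. In Ube2c, the matches at 186 and 183 bases before the start overlap, and a match 228 bases before it lies outside the printed stretch. Anapc1, Anapc2, Cdc16 and Ube2s held neither in this window. For Ube2s, the window (chr7:4812291-4812590, minus strand) lies wholly within the span of Ube2s-001 (chr7:4808014-4812590). No base before that transcript was searched, so Ube2s cannot serve as a gene without these letters. The CCAAT match of Fzr1 also lies within the span of its listed transcript. A match is a description of letters and not of a bound site. Any link between these letters and the calls was not tested, and their share among all called genes was not counted.

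Cdc20 (chr4:118432901-118437352, mm10, minus strand, 10 exons), the activator that the spindle checkpoint holds back until chromosomes are attached, had 120.2, 126 and 161 FPKM in overexpression samples, against 61.5, 85.5 and 116 FPKM in controls. Every overexpression sample was above every control, by a narrow gap between the lowest overexpression sample and control replicate 3. The means were 136 ± 22.2 FPKM in overexpression samples and 87.7 ± 27.4 FPKM in controls (SD, n = 3 each). The log2 difference was 0.66 (SE 0.24, 95% CI 0.11 to 1.21), with a limma adjusted p = 0.491, and the call rests on the unadjusted threshold. The call passed under 14 of 18 alternatives and was lost without overexpression replicate 3 (0.53), without control replicate 1 (0.43) and without control replicate 2 (0.66). It was also lost when variances were not moderated, with the same difference.

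Fzr1 (chr10:81366222-81378516, minus strand, 14 exons), which takes over from Cdc20 as the activator after anaphase, had 15.8, 20.2 and 18.4 FPKM in overexpression samples, against 10.7, 16.2 and 12.6 FPKM in controls. The groups overlapped, since control replicate 2 was above overexpression replicate 1. The difference of 0.45 (SE 0.19, 95% CI 0.02 to 0.88, limma adjusted p = 0.533) was under the fold threshold, and it was called under 1 of 18 alternatives, without control replicate 2 (0.60). The Cdc20 to Fzr1 ratio of FPKM was 7.59, 6.24 and 8.77 in overexpression samples, against 5.76, 5.28 and 9.25 in controls, with the groups overlapping.

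Ube2c, the E2 enzyme that starts ubiquitin chains on APC/C substrates, had 171, 161 and 235 FPKM in overexpression samples, against 83.6, 114 and 135 FPKM in controls. No control reached an overexpression sample. The means were 189 ± 39.8 FPKM in overexpression samples and 111 ± 26.0 FPKM in controls (SD, n = 3 each), a log2 difference of 0.77 (SE 0.22, 95% CI 0.26 to 1.28, limma adjusted p = 0.455). Transcript Ube2c-001 (chr2:164769898-164772907, plus strand, 6 exons) held 98.2% to 99.9% of Ube2c in each sample. Its call in the test of single transcripts therefore reuses nearly the same values. The call passed under 17 of 18 alternatives and was lost without control replicate 1 (0.58, under the fold threshold).

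Ube2s, the E2 enzyme that lengthens chains, had 135, 202 and 168 FPKM in overexpression samples, against 85.2, 119.6 and 145 FPKM in controls. Control replicate 3 lay above overexpression replicate 1. The difference was 0.54 (SE 0.23, 95% CI 0.01 to 1.07, limma adjusted p = 0.539), which is under the fold threshold. It was called under 3 of 18 alternatives (quantile normalization, without overexpression replicate 1 and without control replicate 3).

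Fbxo5 (chr10:5799160-5805600, minus strand, 5 exons), the inhibitor, had 26.4, 25.2 and 28.0 FPKM in overexpression samples, against 19.3, 14.3 and 13.9 FPKM in controls. The overexpression samples lay close together and above every control. The means were 26.6 ± 1.43 FPKM in overexpression samples and 15.8 ± 3.02 FPKM in controls (SD, n = 3 each), a log2 difference of 0.72 (SE 0.17, 95% CI 0.34 to 1.11, limma adjusted p = 0.412). It was called under all 18 alternatives, with values of 0.64 to 0.87. The Ube2c to Fbxo5 ratio was 6.48, 6.41 and 8.37 in overexpression samples, against 4.33, 7.96 and 9.76 in controls, and the groups overlapped.

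After trends with transcript length and GC content were removed from each sample, the same 3 of the 10 genes were called, with log2 differences of 0.64 for Cdc20, 0.76 for Ube2c and 0.69 for Fbxo5. Fzr1 (0.42) and Ube2s (0.54) remained under the fold threshold.

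Exon overlap with genes on the other strand was found for Cdc20 (Elovl1), Fzr1 (Mfsd12), Ube2c (Tnnc2) and Ube2s (Rpl28). The dUTP library preserves strand, but neither the labels nor the methods say if reads were assigned by it. None of these neighbours was called. Elovl1 differed by 0.09, Mfsd12 by 0.08 and Rpl28 by 0.05 on the log2 scale. Tnnc2 was listed at 0 in 2 overexpression samples and at 1.77 FPKM in replicate 3, against 0 in 2 controls and 0.173 FPKM in control replicate 3.

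None of the 5 core subunits passed the call or an unadjusted limma p under 0.05, and their median difference was 0.25. Of all genes, 2.49% were called higher, 2.23% lower, and 9.16% had such a p. With shares this low, 0 of 5 does not set the core subunits apart from other genes. Anapc5, a scaffold subunit, had 65.9, 67.2 and 92.6 FPKM in overexpression samples, against 37.7, 56.9 and 74.2 FPKM in controls. The groups overlapped, and its difference was 0.45 (SE 0.25, limma adjusted p = 0.633). Without control replicate 3 it reached 0.67 and was called.

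Cdc27, which carries the arm that binds the activators, had 16.8, 13.8 and 12.4 FPKM in overexpression samples, against 18.7, 9.32 and 8.42 FPKM in controls. Control replicate 1 was the highest of all 6 samples, opposite to its place in Cdc20 and Ube2c. The difference was 0.30 (SE 0.28, limma adjusted p = 0.795), and 0.63 and called without control replicate 1. Cdc16, another tetratricopeptide subunit of that arm, had 34.6, 35.6 and 37.6 FPKM in overexpression samples, against 31.8, 31.4 and 32.5 FPKM in controls. Its groups did not overlap, but the difference was 0.17 (SE 0.13, limma adjusted p = 0.722).

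Anapc1, the largest scaffold subunit, had 22.1, 20.8 and 23.3 FPKM in overexpression samples, against 21.4, 16.5 and 17.6 FPKM in controls, with a difference of 0.25 (SE 0.15, limma adjusted p = 0.656). Anapc2, the cullin subunit that holds the catalytic core, was the 1 gene of the 10 with a negative difference. It had 40.5, 43.7 and 40.6 FPKM in overexpression samples, against 40.4, 55.3 and 61.3 FPKM in controls, a difference of -0.30 (SE 0.18, limma adjusted p = 0.639). It stayed between -0.48 and -0.18 under all 18 alternatives. Control replicate 1 lay just below the lowest overexpression sample for Anapc2, and the other controls lay above all 3 overexpression samples. With the length and GC trends removed, Anapc2 differed by -0.33 and Cdc27 by 0.29, both with an unadjusted limma p under 0.05 and under the fold threshold. Anapc5 (0.41), Anapc1 (0.28) and Cdc16 (0.13) stayed above that p. Without control replicate 1, Anapc1 (0.35), Anapc2 (-0.48) and Cdc27 (0.63) were under it.

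**Figure D2:**
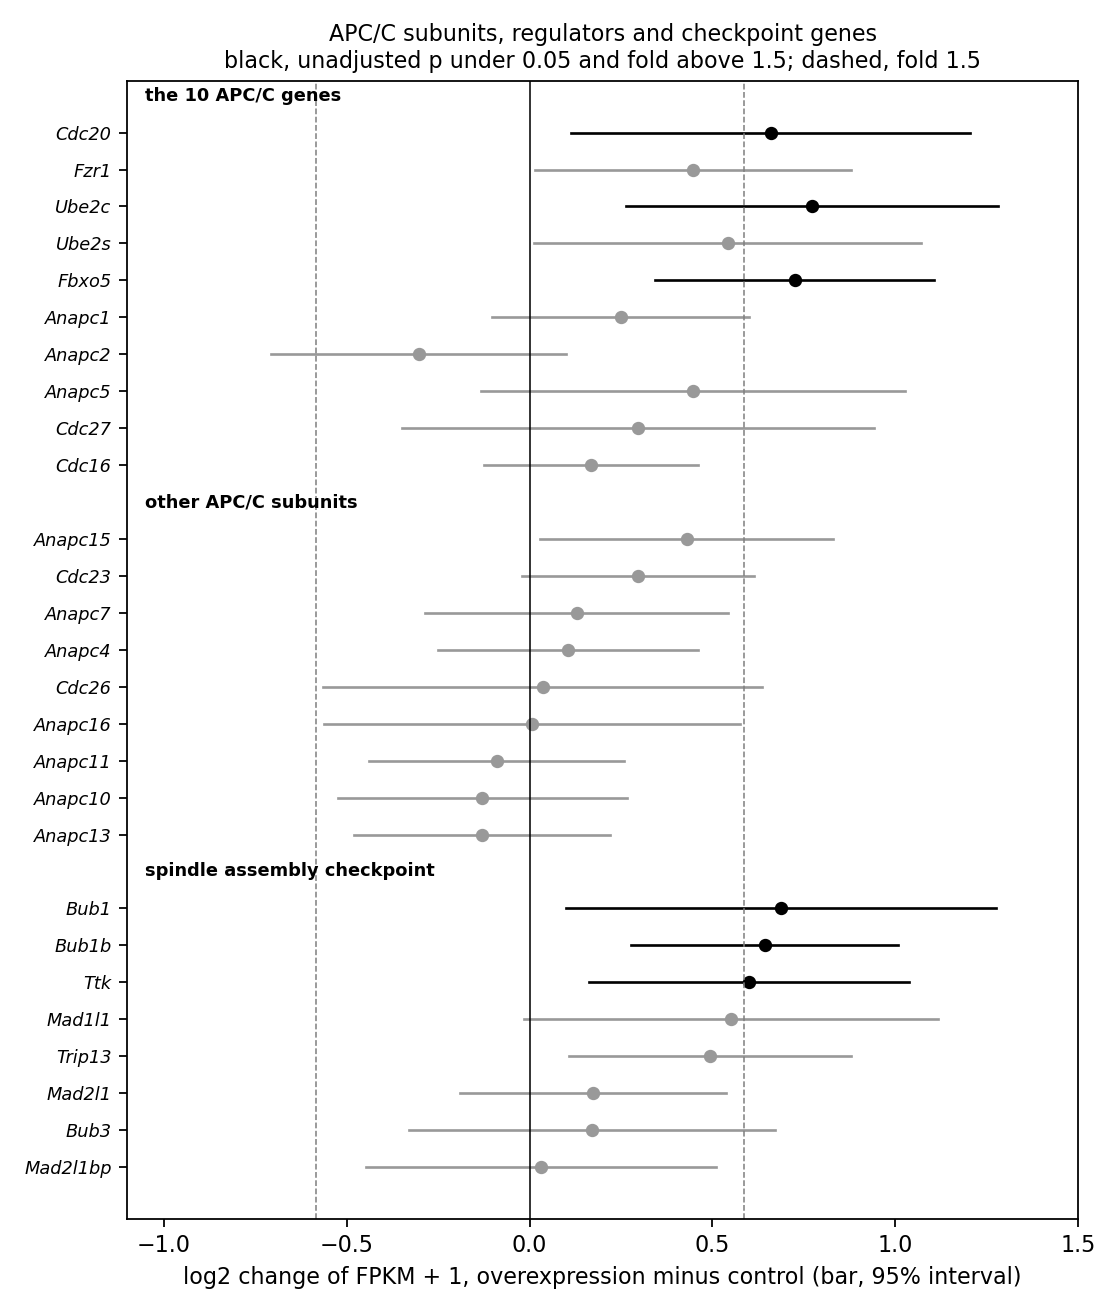
Log2 difference (overexpression minus control, with 95% CI from limma) of the 10 genes, the other subunits and the checkpoint genes, on log2(FPKM + 1), with called genes in black and the fold threshold dashed. The intervals of Cdc20, Fzr1, Ube2c, Ube2s and Fbxo5 lie above 0, and those of the 5 core subunits cross 0.

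Of the 21 transcripts, 6 were called higher and 0 lower, against 3.07% and 2.51% of all 21849 transcripts, and 0 passed the adjusted threshold. They were Cdc20-001, Ube2c-001, Fbxo5-001 and 3 of 7 Anapc5 transcripts. Cdc20-001 and Fbxo5-001 are the only listed transcripts of their genes, and Ube2c-001 is nearly all of Ube2c. Their calls therefore repeat the gene calls on the same values. When samples were left out in turn, Cdc20-001 was called in 1 of 6 cases (without control replicate 3), Ube2c-001 in all but that without control replicate 1, and Fbxo5-001 in all 6. Anapc5-001, the transcript with the highest level (chr5:122787459-122821339, minus strand, 17 exons), had 37.0, 24.7 and 49.5 FPKM in overexpression samples, against 23.9, 35.0 and 49.1 FPKM in controls, with a difference of 0.04 (limma adjusted p = 0.976). Anapc5-007 had 13.0, 24.9 and 21.4 FPKM in overexpression samples, against 5.24, 8.50 and 12.9 FPKM in controls, with a difference of 1.10 (SE 0.36, limma adjusted p = 0.644). It made up 19.7%, 37.1% and 23.1% of Anapc5 in overexpression samples, against 13.9%, 15.0% and 17.4% in controls. These shares did not overlap, and no test was run on them.

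The transcripts Anapc5-001 and Anapc5-007 differ by their ends and by 20 bases at the start of exon 15 (chr5:122791736-122791755, GRCm38, minus strand), which the first holds and the other skips. The lines show the join in GENCODE M21, with the 20 bases in capitals.
Anapc5-001: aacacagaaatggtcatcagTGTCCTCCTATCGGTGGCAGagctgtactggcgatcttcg
Anapc5-007: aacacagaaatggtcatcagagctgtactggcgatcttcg
The 20 bases are not a multiple of 3, and reads from shared exons are divided between the transcripts by an estimate. Anapc5-006 (5.70, 7.34 and 8.10 FPKM in overexpression samples, against 2.34, 4.06 and 4.45 FPKM in controls) differed by 0.82 (limma adjusted p = 0.643). Anapc5-004 (1.86, 2.52 and 2.43 FPKM in overexpression samples, against 1.13, 1.15 and 1.15 FPKM in controls) differed by 0.60 (limma adjusted p = 0.644). Anapc5-007 was called only when overexpression replicate 1 or control replicate 3 was left out, of the 6 samples. Anapc5-006 was lost without overexpression replicate 2 or 3, and Anapc5-004 without overexpression replicate 2 or 3 or control replicate 2.

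**Figure D3:**
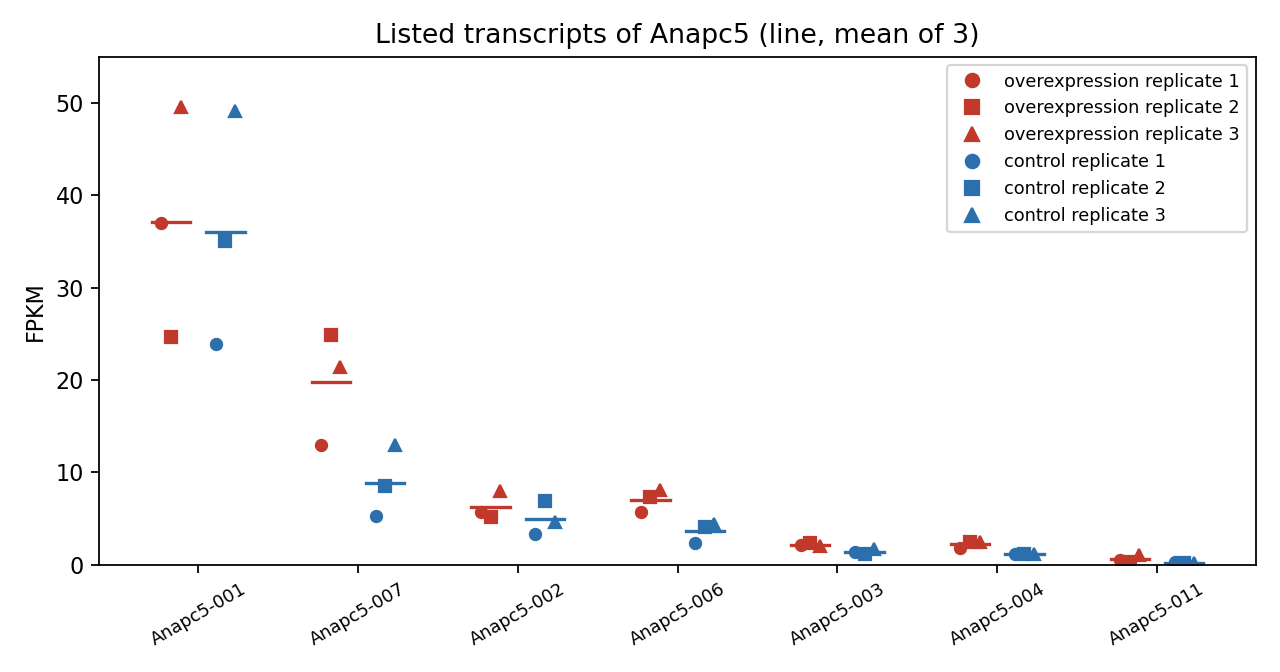
FPKM of the Anapc5 transcripts in each sample, with overexpression samples in red left of controls in blue. Anapc5-001 overlaps between groups, and Anapc5-007 lies above all controls in all 3 overexpression samples by a small margin.

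By level, the E2 enzymes and Cdc20 were the most abundant of the 10 genes, with means over all 6 samples of 150.0 FPKM for Ube2c, 142 FPKM for Ube2s and 112 FPKM for Cdc20. Their ranges over samples overlapped. Anapc5 (65.7 FPKM) and Anapc2 (47.0 FPKM) overlapped each other, and Cdc16 (33.9 FPKM) lay below Anapc2 in every sample. Fbxo5 (21.2 FPKM), Anapc1 (20.3 FPKM), Fzr1 (15.6 FPKM) and Cdc27 (13.2 FPKM) overlapped from one to the next in this order. Cdc27 was at the 52.5th percentile of genes and Ube2c at the 96.7th.

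The activators and E2 enzymes were set against the core subunits by the mean log2(FPKM + 1) of the first group minus that of the second in each sample. The difference was 1.32, 1.58 and 1.62 in overexpression samples, against 0.69, 1.24 and 1.29 in controls. The groups did not overlap, by a narrow gap between overexpression replicate 1 (1.32) and control replicate 3 (1.29). The genes were chosen with earlier results of these data known, so no test was run on this difference. The means differed by 0.43, with a range of 0.24 (without control replicate 1) to 0.54 (without control replicate 3) when 1 sample was left out. It was 0.44 with the length and GC trends removed. The part of the activators and E2 enzymes was 6.38, 6.60 and 6.72 in overexpression samples, against 5.59, 6.07 and 6.23 in controls. That of the core subunits was 5.06, 5.02 and 5.11 in overexpression samples, against 4.89, 4.84 and 4.94 in controls. Of the 4 activators and E2 enzymes, 2 were called higher, beside 2.49% of all genes, and their median difference was 0.60. Without control replicate 1, 0 of the 4 were called.

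**Figure D4:**
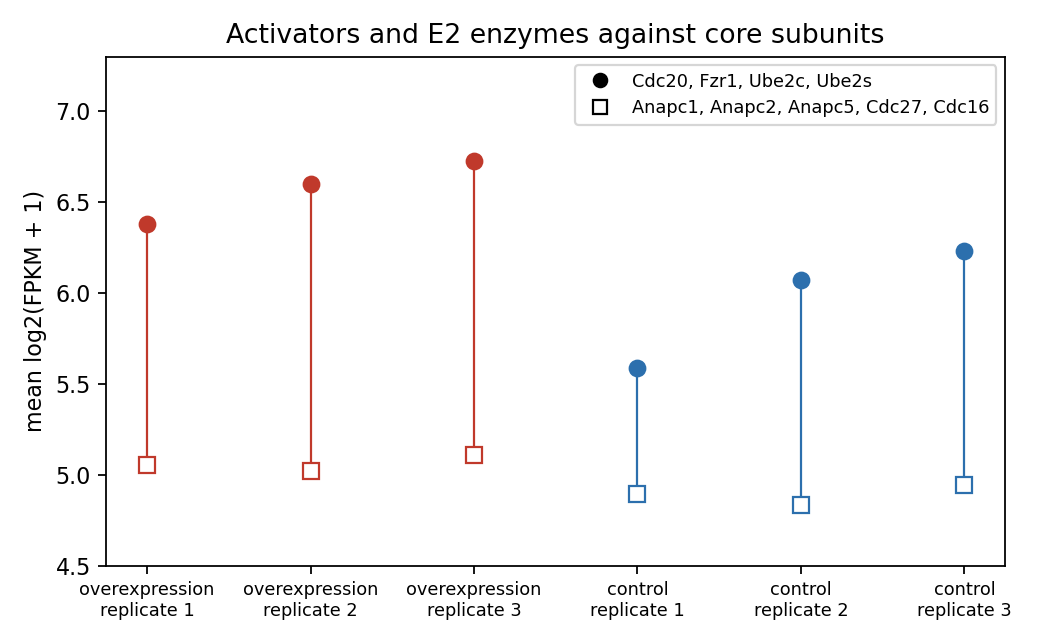
Mean log2(FPKM + 1) of the activators and E2 enzymes (filled circles) and of the core subunits (open squares) in each sample, overexpression in red left of controls in blue. The circles lie between 6.38 and 6.72 in overexpression samples and between 5.59 and 6.23 in controls. The squares lie between 5.02 and 5.11 in overexpression samples and between 4.84 and 4.94 in controls.

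**Figure D5:**
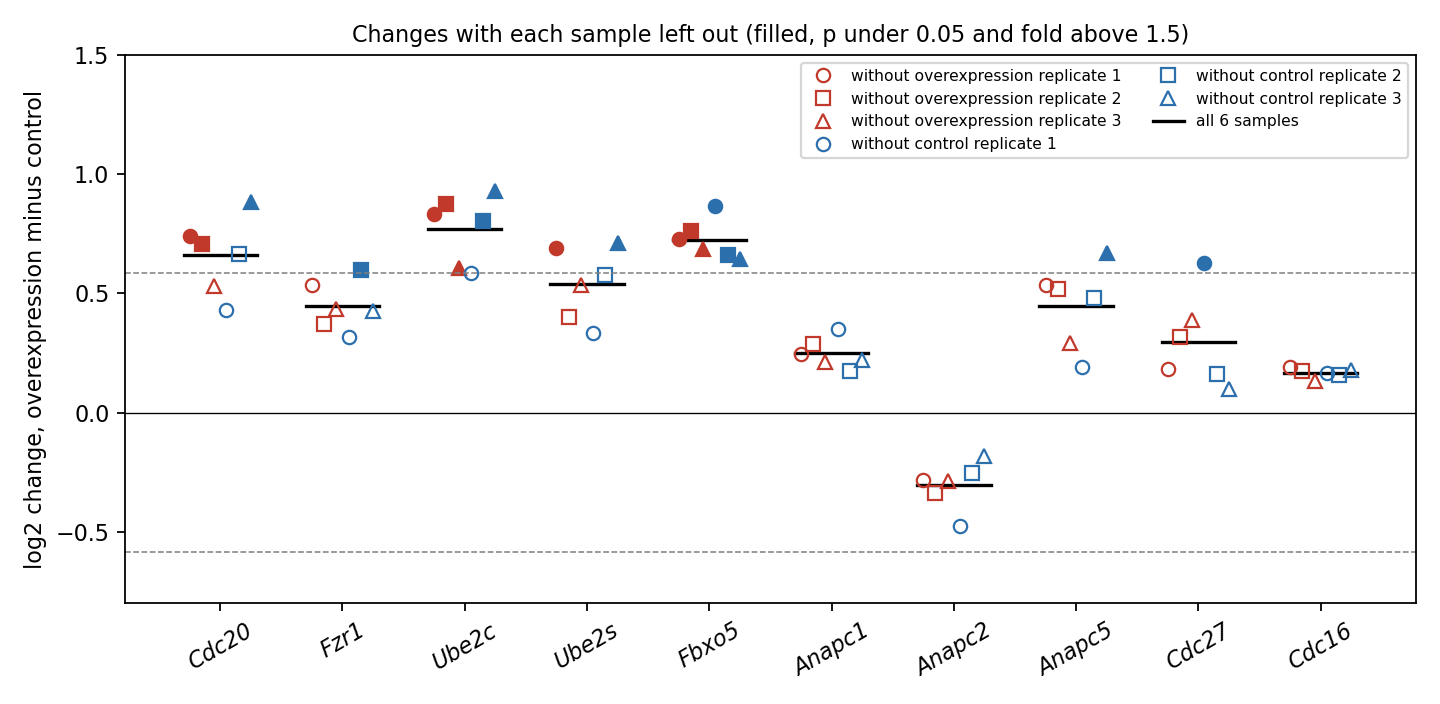
Log2 difference of each of the 10 genes with all 6 samples (black lines) and with each sample left out in turn (filled where called, with the fold threshold dashed). Fbxo5 stays above the fold threshold in every case, Ube2c drops below it without control replicate 1, and Cdc20 without that sample or overexpression replicate 3.

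Overexpression replicate 3 was the highest of its group in 6 of 10 genes, and control replicate 1 the lowest of its group in 6 of 10.

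The other 9 subunits of the complex that were in the table were not called (median 0.04, differences from -0.13 to 0.43). The nearest were Anapc15, a subunit that promotes release of the checkpoint complex (0.43, limma adjusted p = 0.526, unadjusted p under 0.05), and Cdc23 (0.30, limma adjusted p = 0.570). Over all 14 subunits, 0 were called in either direction, 1 had an unadjusted p under 0.05 and the median was 0.12. These counts stand beside 2.49% of all genes called higher, 2.23% called lower and 9.16% with such a p, and are near those shares.

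Among spindle checkpoint genes, which restrain Cdc20, 3 of 8 were called higher and 0 lower, beside 2.49% and 2.23% of all genes. Their median difference was 0.52. Bub1b (BubR1), which binds Cdc20 in the checkpoint complex, had 39.5 ± 3.57 FPKM in overexpression samples and 25.1 ± 3.99 FPKM in controls (SD, n = 3 each), a difference of 0.64 (limma adjusted p = 0.421). Ttk (Mps1 kinase) differed by 0.60 (limma adjusted p = 0.473) and Bub1 by 0.69 (limma adjusted p = 0.504). The call of Bub1b was lost without overexpression replicate 3, control replicate 1 or control replicate 2, that of Ttk without control replicate 2 or 3 or with the length trend removed (0.57), and that of Bub1 without overexpression replicate 1 or 3 or control replicate 2 or 3. With the length and GC trends removed, 2 of 8 were called.

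Among genes whose proteins the APC/C marks for degradation, 14 of 26 were called higher and 0 lower, beside 2.49% and 2.23% of all genes. All 26 had differences above 0, beside 6129 of all 11308 genes, and the median was 0.62. The count of called genes ran from 10 to 15 when 1 sample was left out, and was 13 with the length and GC trends removed. Bub1 is counted both here and among the checkpoint genes. Cyclin A2 (Ccna2) differed by 0.91, cyclin B1 (Ccnb1) by 0.86 and cyclin B2 (Ccnb2) by 0.74, and the kinases Nek2 by 0.98 and Aurka by 0.92. Prc1, which bundles spindle midzone microtubules, differed by 0.87. The limma adjusted p of these 6 ran from 0.352 to 0.425, so none passed the adjusted threshold. The 12 that were not called include securin (Pttg1, 0.09, limma adjusted p = 0.927), geminin (Gmnn, 0.25, limma adjusted p = 0.688) and Cdc6 (0.03, limma adjusted p = 0.978). The ratio of Cdc20 to Ccnb1 was 2.62, 2.44 and 2.44 in overexpression samples, against 2.32, 3.41 and 3.04 in controls, with control replicate 1 apart from the other controls.

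Genes of the SCF ligase and other ubiquitin enzymes had 0 of 13 called in either direction and 0 with an unadjusted p under 0.05 (median 0.04). Over all genes, 2.49% were called higher, 2.23% lower, and 9.16% had such a p, so counts of 0 are near those shares. The nearest were Ube2d1, an E2 enzyme (-0.32, limma adjusted p = 0.588), and Cdc34, the SCF E2 enzyme (0.41, limma adjusted p = 0.682). Among 8 markers of cycling cells, 2 were called higher and 0 lower, beside 2.49% and 2.23% of all genes. They were Top2a (0.63, limma adjusted p = 0.481) and Birc5 (0.74, limma adjusted p = 0.503), and 0 of the 8 were called without control replicate 2. Mcm and Pcna genes, which act in S phase, differed by -0.20 to 0.16. Of the 8 markers, 2 (Mcm6 and Pcna) were lower in every overexpression sample than in any control, beside 6.24% of all genes. In 1 (Top2a) every overexpression sample was higher, beside 10.1% of all genes. Mki67 had 43.7, 37.2 and 30.7 FPKM in overexpression samples, against 44.1, 20.04 and 19.5 FPKM in controls.

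Profiles over the 6 samples were compared by the root mean square of differences in mean-centred log2(FPKM + 1), among 10449 genes. The genes nearest to Cdc20 were Kif22 (0.0449), Fam83d (0.0628) and Wdr62 (0.0645). Kif22, a chromosome-binding kinesin, differed by 0.64 between groups, and it is also counted among the called APC/C substrates above. All genes of this paragraph were picked for profiles near those of Cdc20 or Ube2c. Like differences between groups and like losses of calls follow from that choice. The genes nearest to Ube2c were Hist1h1d (0.0599), Iqgap3 (0.0679) and Kif18b (0.0686). Hist1h1d is a histone gene, and such genes share reads with near copies, so its value is uncertain. It had only 0.80 to 3.84 FPKM, a level at which the added 1 shrinks log2 differences. Its fold of mean FPKM was 2.22, against 1.70 for Ube2c, so its nearness depends on that added 1. The calls of Kif22, Fam83d and Iqgap3 were lost without overexpression replicate 3 or control replicate 1, and Wdr62 was not called. That of Iqgap3 was also lost with the length trend removed, and that of Hist1h1d with the length and GC trends removed.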

How the data were processed

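RNA-seq of poly(A) RNA was made from 3 overexpression and 3 control samples. The authors deposited FPKM per transcript. FastQC, HISAT2, StringTie and the build mm10 are named in the submitters' processing notes, without versions. The table holds only transcripts with a larger group mean of 0.5001 FPKM or more. Read depth is unknown, since no step worth 1 read was found in the low values, so precision rests on the spread between samples. There were 0 other per-sample columns. An exact permutation of 3 against 3 samples cannot go below p = 0.1, so none is given, and unadjusted limma p-values serve only as the threshold of the calls.

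FPKM were summed by gene symbol. The test was limma 3.58.1 (R 4.3.3) on log2(FPKM + 1) (eBayes with trend, two-sided, Benjamini-Hochberg over 11308 genes); single transcripts were tested likewise. Calls used p under 0.05 and fold above 1.5. The fit was tested on simulated data. Named genes were the 10 genes, the called genes of each list (up to 6 by p, or the 2 with smallest p where fewer than 2 were called), and the 3 nearest profiles to Cdc20 and Ube2c. The members and lists were chosen with earlier results of these data known. Alternatives were other pseudocounts (0.1, 0.5), filters, scalings, the replicate block, no trend, no moderation, leaving out each sample, and 2 chosen after seeing the data (length, and length with GC content). Annotation was GENCODE M21 and promoters RefSeq GRCm38.p6. The level of Dlx6-os1 was not used here to check the labels. Some podocyte markers, and the summed level of that list, are not reported here.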

Additional observations from a re-analysis of the deposited data

How the results depend on the processing

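The replicate block gave 643 genes called (349 higher and 294 lower, against 282 and 252 without it), 3 of the 10 APC/C genes and 6 of the transcripts. Whether the numbers pair the samples was not settled. Deviations of same-numbered samples correlated by 0.29, 0.02 and 0.29, against -0.31 to 0.11 in the other pairs. Overexpression replicate 2 correlated best with control replicate 1 (0.11). The block changed no call among the 10 genes, though their unadjusted limma p was lower with it for all but Cdc16. Anapc5 (0.45) had an unadjusted p under 0.05 with it, as Cdc16 (0.17) had with no moderation. Over the whole table, 10 genes passed an adjusted p of 0.05 with the block, against 4 without it, and 0 of the 10 APC/C genes did.

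Called genes over the whole table came to 248 with no moderation, the only fit of all 6 samples to move that count by over 1.5 times, and to 384 to 789 when 1 sample was left out. With median-centred values 228 were higher and 314 lower, and with quantile normalization 251 and 271. The count among the 10 APC/C genes ran from 2 to 5 when 1 sample was left out, with 5 without control replicate 3, and that among the transcripts from 2 to 7, with 3 without overexpression replicate 2 and 2 without overexpression replicate 3. The difference between activators with E2 enzymes and core subunits ran from 0.24 to 0.54. Of the values of single genes under 18 alternatives, 169 kept their direction and side of the threshold, 5 lost the call and 6 gained it, and 0 reversed. Removing trends with length and GC content, chosen after seeing the data, left 3 of 10 called. The filter removed no gene, so no filter gave the same values. The depth is unknown, so precision could not be judged from reads.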
